A study of Mus musculus with 6 samples.

Results

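The Eph receptors and ephrins examined here are 10 genes, *Epha1*, *Epha2*, *Epha4*, *Ephb2*, *Ephb3*, *Ephb4*, *Efna1*, *Efna3*, *Efnb1* and *Efnb2*, taken by symbol from a deposited table of 17554 genes. Their mRNA was measured by bulk RNA-seq in the corneal epithelial layer of 2-month-old C57BL/6 mice, from 3 control samples and 3 *Krt14-Cre; Rela f/f* samples. By the paper's account, the engineered lines had been crossed repeatedly to B6 mice. The labels call the groups WT and Rela-/-, and the exact genotype of the control mice beyond WT is not given in the sources used here. In the mutant mice, Cre recombinase is driven by the keratin 14 promoter and deletes floxed sequence of *Rela*, the gene of the NF-κB subunit RelA. The promoter is used by basal cells of many stratified epithelia, so the deletion is not limited to the cornea. In bulk RNA, fewer cells of a type and less RNA per cell cannot be told apart.

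Eph receptors form the largest family of receptor tyrosine kinases, and ephrins are their membrane-bound ligands. A-class ephrins are held on the membrane by a lipid anchor and mainly bind A-class receptors, while B-class ephrins cross the membrane and mainly bind B-class receptors. Contact between cells that carry a receptor and a ligand signals into both cells and is known for sorting cells, setting tissue borders and guiding axons. In the corneal epithelium these proteins have been linked to the border with the limbus, cell migration and wound closure.

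FPKM and fold changes are given throughout. FPKM values, which are scaled for transcript length and for the total of the sample, give levels that can be compared between genes. Log2 fold changes of mutant over control samples come from edgeR's quasi-likelihood test on expected counts, with p-values adjusted by the Benjamini-Hochberg method across the 12667 genes left by a filter on low counts. Each fold change is given with its standard error (SE). A gene is said to have risen or fallen where its adjusted p was under 0.05. Of the genes tested, 1678 (13.2%) passed this threshold, 991 (7.82%) with higher and 687 (5.42%) with lower expression in mutant samples.

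The expected counts of a sample summed to between 19492942 and 19733834. *Rela* fell, with FPKM values between 33.4 and 36.5 in control and between 4.93 and 5.72 in mutant samples (edgeR adjusted p = 5.5e-07). Of the corneal epithelial markers, *Krt12*, *Krt5*, *Pax6* and *Aldh3a1* were at 185.5 FPKM or more in every sample. *Krt14* rose by 3.32 on the log2 scale and *Aldh3a1* fell by 0.25 (edgeR adjusted p = 0.0466), while *Pax6* and *Tkt* had lower values in all 3 mutant samples without passing the test (adjusted p = 0.19 and 0.0654). Mutant sample 1 stood apart, with counts farther from those of mutant samples 2 and 3 (mean chi-square per gene 19.8 and 27.4) than these were from each other (9.83). The summed FPKM of 8 keratocyte markers was 0.35 to 0.59 in control samples and 4.11, 2.49 and 1.13 in mutant samples 1, 2 and 3, and 7 of the 8 markers were under 1 FPKM in every sample. Only 2 of the 8 passed the filter. Of these, *Dcn* rose from 1 to 3 counts a control sample to 14 to 66 counts a mutant sample. *Dcn* passed the filter only through the mutant samples. The untested *Col1a1*, *Col3a1* and *Vim* were higher in every mutant than in every control sample. The untested *Kera*, *Lum* and *Col1a2* and the tested *Thy1* (edgeR adjusted p = 0.352) overlapped between the groups. The mean of *Kera* was 0.05 FPKM in control and 0.027 FPKM in mutant samples. Summed levels of 6 vascular endothelial markers were 1.00 to 1.99 in control and 0.94 to 1.23 in mutant samples, most of it *Tie1*.

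All 10 genes passed the filter on low counts. *Efna1* rose and *Efna3* fell in mutant samples, and the other 8 genes did not pass the test. The number of genes called, 2 of 10, stands beside 13.2% of all genes tested, and it was 1 without control sample 1, 2 or 3 or mutant sample 2. The calls were 2 of 4 ephrins and 0 of 6 receptors by edgeR, while 2 of the receptors had an unadjusted p under 0.05 and neither DESeq2 nor limma called any receptor. The median log2 fold change of the 10 genes was 0.10, against -0.003 over all genes tested. In 4 of the 10 genes the FPKM values of the groups did not overlap, against 32.6% of all genes tested. With the stricter thresholds of the study (at least a 2-fold change, adjusted p no higher than 0.001), 173 genes (1.37%) differed and 0 of the 10 did, by edgeR, DESeq2 or limma.

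**Figure D1:**
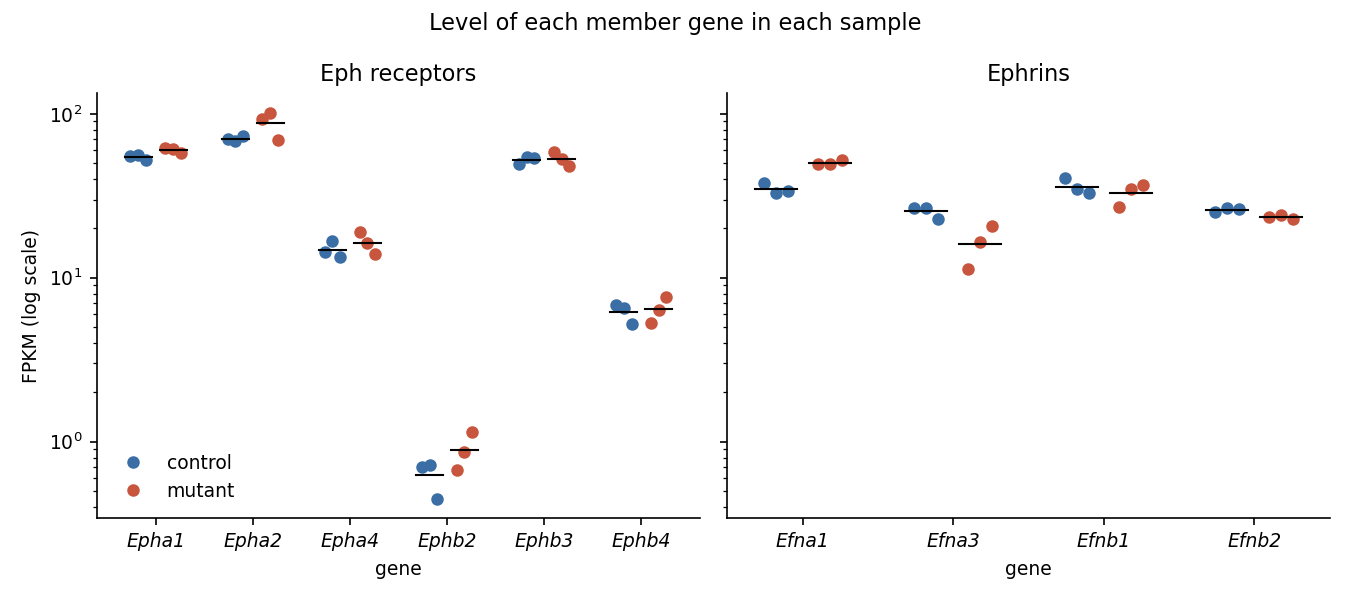
FPKM of each of the 10 genes in each sample on a log axis, with receptors on the left and ephrins on the right. Points are samples 1 to 3 from left to right in control (blue) and mutant (red) mice, and black lines are group means. *Efna1* is higher in all 3 mutant samples, *Efna3* is lower in all 3, and the receptors other than *Epha1* overlap between the groups.

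*Efna1* (gene 13636, chromosome 3, 89271730 to 89280951 of GRCm38) encodes ephrin-A1, a ligand of EphA2 that was first isolated as a product of endothelial cells exposed to TNF. Its FPKM was 37.7, 33.0 and 33.9 in control samples and 49.3, 49.2 and 52.1 in mutant samples. Every mutant sample was above every control sample, and the mutant samples lay closer together than the controls, with a coefficient of variation of 3.2% against 7.22%. The mean was 34.9 ± 2.5 (SD, n = 3) in control and 50.2 ± 1.6 (SD, n = 3) in mutant samples. *Efna1* rose by 0.52 on the log2 scale (SE 0.076, 95% interval 0.35 to 0.69, edgeR adjusted p = 0.0021), a fold change of 1.44. The call held in each of 14 other settings, with log2 fold changes of 0.48 to 0.57 and adjusted p between 1.18e-06 and 0.0153. An exact two-sided permutation test of the FPKM gave p = 0.1, the smallest that 3 against 3 samples allow.

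*Efna3* (gene 13638, chromosome 3, 89313899 to 89322960) encodes ephrin-A3, a ligand of A-class receptors best known from the nervous system. Its FPKM was 26.8, 26.7 and 22.7 in control samples and 11.3, 16.4 and 20.7 in mutant samples. The groups did not overlap, but the highest mutant sample came close to the lowest control sample. The coefficient of variation was 9.08% in control and 28.9% in mutant samples, the widest mutant spread among the 10 genes. *Efna3* fell by 0.60 on the log2 scale (SE 0.17, 95% interval -0.99 to -0.22, edgeR adjusted p = 0.0466), a fold of 0.658. The call was lost without control sample 1 (adjusted p = 0.119), control sample 2 (0.132), control sample 3 (0.114) or mutant sample 2 (0.102), with log2 fold changes of -0.58 to -0.62. It was kept without mutant sample 1, at -0.40 (adjusted p = 0.0242), and without mutant sample 3, at -0.82 (0.0073). The keratocyte marker sum was highest in mutant sample 1, where *Efna3* was lowest, and lowest in mutant sample 3, where *Efna3* was highest among the mutants. The part of stromal RNA in this difference was not tested.

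**Figure D2:**
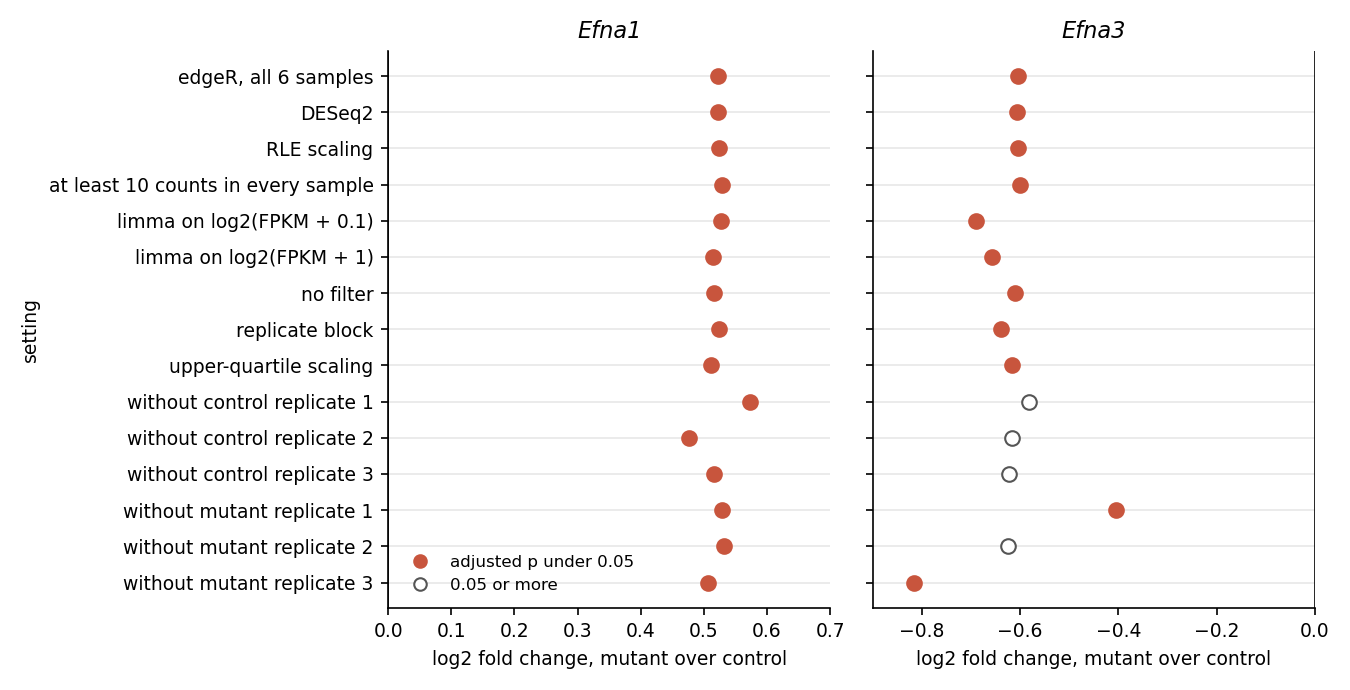
Log2 fold change of *Efna1* (left) and *Efna3* (right) in mutant over control samples, on the horizontal axis, under each test, scaling, filter or set of samples, named on the vertical axis. Filled points have an adjusted p under 0.05. All points of *Efna1* are filled and lie between 0.48 and 0.57, and 4 points of *Efna3* are open, each from a fit that leaves out 1 sample.

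*Efna1* and *Efna3* lie next to each other on chromosome 3, and the 200 bases before their RefSeq start sites on GRCm38.p6 are shown because they are the neighbours that moved in opposite directions. GENCODE starts *Efna1* at 89281142 and *Efna3* at 89322965. Most of the *Efna1* bases and some of the *Efna3* bases shown thus lie inside the GENCODE genes. Capitals mark GC boxes, GGGCGG on either strand, and both sequences are read 5′ to 3′ on the minus strand, chr3:89280952-89281151 for *Efna1* and chr3:89322940-89323139 for *Efna3*.
Efna1: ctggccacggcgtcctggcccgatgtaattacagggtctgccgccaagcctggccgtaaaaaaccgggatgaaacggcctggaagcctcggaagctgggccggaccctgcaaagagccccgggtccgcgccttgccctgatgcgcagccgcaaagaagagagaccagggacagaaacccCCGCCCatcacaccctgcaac
Efna3: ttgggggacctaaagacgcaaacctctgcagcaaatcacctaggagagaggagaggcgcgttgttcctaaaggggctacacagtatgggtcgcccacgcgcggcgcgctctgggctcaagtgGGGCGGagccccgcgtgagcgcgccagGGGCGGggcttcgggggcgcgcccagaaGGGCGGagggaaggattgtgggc
*Efna1* held 1 GC box and *Efna3* held 3 in these bases, of which 64.5% and 67.5% were G or C. Windows of RefSeq promoters from 250 bases before to 50 bases after a start site were matched by symbol for all 10 genes, which had 12 windows. A GC box stood in 10 of the 12 windows, from 8 of the genes, against 35.7% of 32851 windows of all genes. It stood in 19 of the 24 windows of the whole Eph and ephrin family, so it was not particular to the 10 genes. None of the 12 held an AP-1 site (TGACTCA, in 5.2% of all windows), an NF-κB site written as GGG, 2 free bases and TTTCC (1.63%) or a retinoic acid response element written as AGGTCA repeated after 5 free bases (0.00913%). With shares this low, 12 windows are too few for the absence of these 3 sites to say anything about the 10 genes. Bases farther upstream, where the paper places the RelA site of *Aldh1a1*, were not searched. These motifs were searched on both strands with no mismatch, and the GC box was added after the data were seen. A match of letters is a description of the sequence and no evidence of binding.

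The third gene of this run on chromosome 3, *Efna4*, which encodes another A-class ephrin, is not one of the 10. Its FPKM was 12.7, 10.8 and 10.7 in control samples and 7.60, 9.80 and 9.59 in mutant samples. These values did not overlap, and the log2 fold change was -0.34 (SE 0.12, edgeR adjusted p = 0.0934). *Efna1* and *Efna3* are 32.9 kb apart and *Efna3* and *Efna4* 10.4 kb apart, and the 3 genes span 66.3 kb. Within 100 kb on either side the table lists 18 other genes, of which 16 were tested. Of these 16, 2 were called, a share close to the 13.2% of all genes tested. The mucin gene *Muc1* rose by 1.79 on the log2 scale (SE 0.25, edgeR adjusted p = 0.0015), from a mean FPKM of 16.1 to 55.6. *Adam15*, which encodes a membrane metalloprotease, had a log2 fold change of -0.24 (SE 0.068, adjusted p = 0.0448). Its deposited span overlaps that of *Efna4* by 179 bases, but in the GENCODE annotation no exon of *Efna4* overlaps an exon of *Adam15*. *Muc1* and *Adam15* were named after their values were seen.

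The deposited row of *Efna3* gives the plus strand, while the GENCODE annotation of the same genome gives the minus strand. *Epha4* and *Efnb2* differ in the same way, as do 2557 of 17085 matched genes (15%). Of the exon bases of *Efna3*, 14.1% overlap the antisense gene *Gm15998*, and 8.13% of its 50-base windows also occur in that gene. The sources used here do not say that strand was used in counting, so reads of *Efna3* and *Gm15998* cannot be told apart there. *Epha1* overlaps *Zyx* on the opposite strand in 6.01% of its exon bases, *Efna4* overlaps *4731419I09Rik* in 10.5%, and *Efna1*, *Efnb1* and *Efnb2* shared no window with another gene.

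The other A-class ephrin at a comparable level was *Efna5*, which encodes ephrin-A5, a repellent guidance cue for retinal axons. Its FPKM was 11.8, 10.5 and 10.4 in control samples and 14.9, 14.5 and 13.6 in mutant samples. *Efna5* rose by 0.40 on the log2 scale (SE 0.081, edgeR adjusted p = 0.0115), with no overlap of the groups. Without control sample 2 or 3 its adjusted p was 0.0589 and 0.0558. *Efna2* stayed between 0.19 and 0.41 FPKM, with 8 to 17 counts a sample, and its log2 fold change was -0.21 (SE 0.38, adjusted p = 0.771).

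As a description of the A-class ligands together, the summed FPKM of the 5 A-class ephrins was 82.9 ± 5.8 (SD, n = 3) in control and 89.9 ± 6.4 (SD, n = 3) in mutant samples, with overlapping values. The share of *Efna1* in this sum was 42.3%, 40.5% and 43.5% in control samples and 59.1%, 54.6% and 54.1% in mutant samples. The share of *Efna3* was 30.0%, 32.8% and 29.2% in control samples and 13.6%, 18.2% and 21.5% in mutant samples. The total thus overlapped between the groups while the shares of both genes did not. The ratio of *Efna1* to *Efna3* FPKM was 1.41, 1.24 and 1.49 in control samples and 4.35, 3.001 and 2.52 in mutant samples. These sums and ratios were built after the single genes were seen and were not tested.

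**Figure D3:**
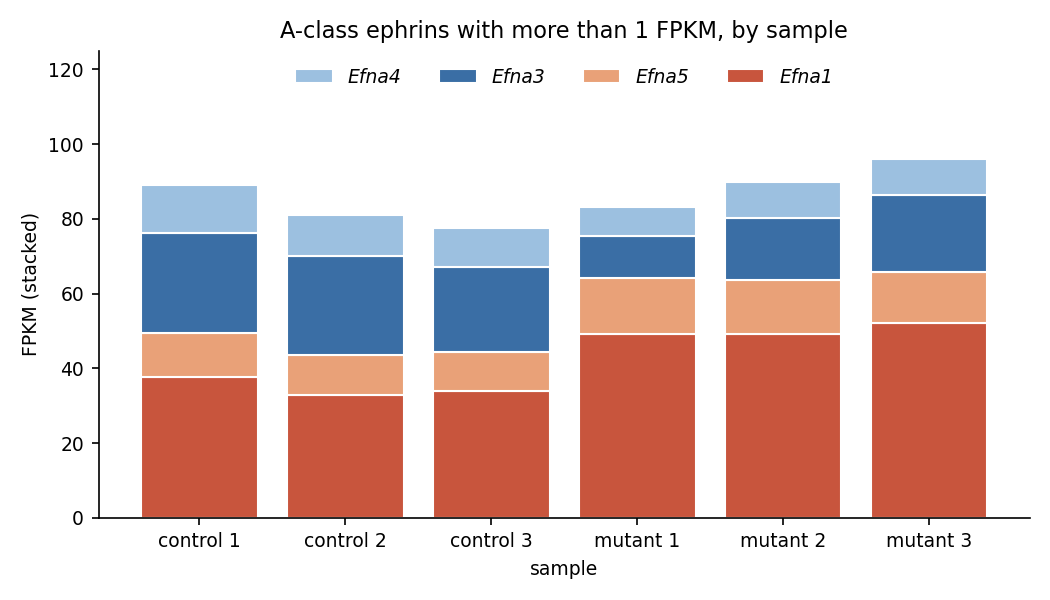
Stacked FPKM of *Efna1*, *Efna5*, *Efna3* and *Efna4* in each sample, with samples on the horizontal axis. The totals of the 2 groups overlap, while the *Efna1* segment is taller and the *Efna3* segment shorter in all 3 mutant samples than in the controls.

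The B-class ephrins among the 10 did not pass the test. *Efnb1* (gene 13641, chromosome X, 99136061 to 99149022) encodes ephrin-B1, whose loss causes craniofrontonasal syndrome. Its FPKM was 40.4, 34.6 and 32.8 in control samples and 27.0, 34.9 and 36.6 in mutant samples. Only mutant sample 1 was below the controls, and the log2 fold change was -0.13 (SE 0.12, 95% interval -0.40 to 0.13, edgeR adjusted p = 0.504). *Efnb2* (gene 13642, chromosome 8, 8612252 to 8661260) encodes ephrin-B2, a ligand of EphB4 and a marker of arterial endothelium. Its FPKM was 25.2, 26.6 and 26.4 in control samples and 23.6, 24.3 and 22.8 in mutant samples. All mutant values were under all control values, by a small step, and the log2 fold change of -0.16 did not pass the test (SE 0.072, 95% interval -0.32 to 0.01, adjusted p = 0.189). *Efnb3* was at 0.21 to 0.49 FPKM and had a log2 fold change of -0.13 (SE 0.37, adjusted p = 0.867).

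Among the A-class receptors, *Epha2* had the highest level in both groups. *Epha2* (gene 13836, chromosome 4, 141301221 to 141329384) encodes EphA2, a receptor abundant in epithelia that binds ephrin-A1. Its FPKM was 70.4, 68.3 and 73.1 in control samples and 93.0, 101 and 69.5 in mutant samples. Mutant samples 1 and 2 were above every control and mutant sample 3 was within the control range. The log2 fold change was 0.30 (SE 0.13, 95% interval 0.01 to 0.60, edgeR unadjusted p = 0.0436, adjusted p = 0.162). Without mutant sample 3 it was 0.46 with an adjusted p of 0.0079, so the call depends on that sample.

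*Epha1* (gene 13835, chromosome 6, 42358487 to 42373310) encodes the receptor after which the family was named. Its FPKM was 55.0, 56.1 and 52.3 in control samples and 61.5, 60.9 and 57.8 in mutant samples. The groups did not overlap, and the log2 fold change of 0.14 did not pass the test (SE 0.070, 95% interval -0.01 to 0.30, edgeR adjusted p = 0.215). *Epha4* (gene 13838, chromosome 1, 77367182 to 77515103) encodes a receptor that binds ephrins of both classes. Its FPKM was 14.3, 16.7 and 13.3 in control samples and 18.9, 16.3 and 14.01 in mutant samples. The groups overlapped except for mutant sample 1, and the log2 fold change was 0.16 (SE 0.12, 95% interval -0.12 to 0.43, adjusted p = 0.446).

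The B-class receptors covered a wide range of levels. *Ephb3* (gene 13845, chromosome 16, 21204795 to 21223309), known with *Ephb2* for placing cells along the intestinal crypt, had an FPKM of 49.1, 54.6 and 53.5 in control samples and 58.5, 53.0 and 48.3 in mutant samples. The mutant samples fell on both sides of the controls. Its log2 fold change was 0.02 (SE 0.093, edgeR adjusted p = 0.925), and the 95% interval of -0.19 to 0.23 leaves out changes larger than 1.17-fold upward or to 0.876 of the control downward. *Ephb4* (gene 13846, chromosome 5, 137350109 to 137374522), which encodes a receptor of ephrin-B2 known from venous endothelium, had an FPKM of 6.84, 6.50 and 5.21 in control samples and 5.27, 6.39 and 7.64 in mutant samples. The groups overlapped, with a log2 fold change of 0.05 (SE 0.14, 95% interval -0.25 to 0.36, adjusted p = 0.84). Of the endothelial markers, *Kdr* was listed at 0 in the control samples and at no more than 0.02 in the mutant samples, and *Cdh5* at no more than 0.04 in any sample. *Tie1* was at 0.89 to 1.80 FPKM in control and 0.70 to 0.93 in mutant samples (adjusted p = 0.138). *Pecam1*, which was not tested, was at 0.03, 0.03 and 0.08 in control and 0.13, 0.12 and 0.23 in mutant samples, with no overlap. The part of endothelial RNA in the levels of *Ephb4* and *Efnb2* was not tested.

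*Ephb2* (gene 13844, chromosome 4, 136647536 to 136836012) was the lowest of the 10 genes. Its FPKM was 0.70, 0.72 and 0.45 in control samples and 0.67, 0.86 and 1.15 in mutant samples, which stand for 97 to 155 counts in control and 145 to 251 counts in mutant samples. Mutant samples 2 and 3 were above every control and mutant sample 1 was among them. The log2 fold change was 0.52 (SE 0.22, 95% interval 0.03 to 1.01, edgeR unadjusted p = 0.0398, adjusted p = 0.154). It was close to that of *Efna1*, whose SE was 0.076. Without mutant sample 1 it was 0.68 with an adjusted p of 0.0478.

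**Figure D4:**
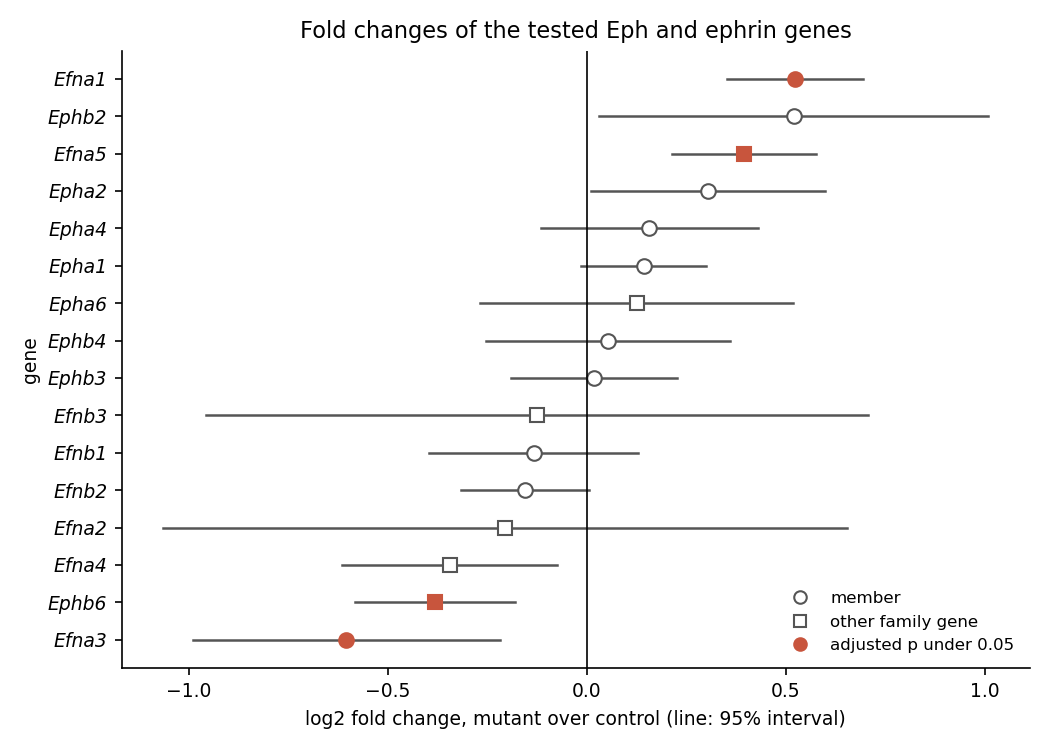
Log2 fold change of mutant over control samples for the 16 tested Eph and ephrin genes, named on the vertical axis, with 95% intervals as lines. Circles are the 10 genes and squares the other family genes, and filled symbols have an adjusted p under 0.05. *Efna1* and *Efna5* are filled on the right, and *Ephb6* and *Efna3* on the left.

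Of the other receptors, *Ephb6*, which encodes a receptor without kinase activity, fell. Its FPKM was 10.9, 13.1 and 11.6 in control samples and 8.50, 9.22 and 9.63 in mutant samples. The groups did not overlap, and the log2 fold change was -0.38 (SE 0.090, edgeR adjusted p = 0.0221). The adjusted p rose to 0.0854, 0.0712 and 0.0611 without control sample 2, control sample 3 and mutant sample 2. *Epha6* was at 0.24 to 0.32 FPKM, with a log2 fold change of 0.13 (SE 0.18, adjusted p = 0.688). *Epha5*, *Epha8*, *Epha10* and *Ephb1* had no more than 2 counts in any sample and *Epha7* no more than 8, so they were not tested. *Epha3* was not listed among the genes of the deposited table. Over the family, 21 genes were listed, 16 were tested and 4 (25%, against 13.2% of all genes tested) were called, 2 of them higher and 2 lower, with a median log2 fold change of 0.04. Without control sample 2 or 3 the family count was 1, and without mutant sample 2 it was 2.

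The order of the receptors by FPKM was the same in both groups. *Epha2* was first, followed by *Epha1* and *Ephb3*, whose ranges overlapped, and then by *Epha4*, *Ephb6*, *Ephb4*, *Ephb2* and *Epha6*, each apart from the next. Among the ephrins of control samples, *Efnb1* and *Efna1* overlapped at the top, *Efnb2* and *Efna3* overlapped below them, and *Efna4* and *Efna5* overlapped after that. In mutant samples *Efna1* was alone at the top, followed by *Efnb1* and *Efnb2*, each apart from the next, then by *Efna3* and *Efna5*, which overlapped, and by *Efna4*. *Efnb3* and *Efna2* were the lowest in both groups and overlapped.

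The mutant samples varied more among themselves in these genes than the control samples did. The median coefficient of variation of the 10 genes was 8.15% in control and 15.3% in mutant samples, against 8.06% and 9.97% over all genes tested, and 8 of the 10 genes had the higher value in mutant samples. Mutant sample 3 was the highest or lowest of the mutants in 10 of the 10 genes, mutant sample 1 in 7 and mutant sample 2 in 3. Mutant sample 3 had the lowest *Epha1*, *Epha2*, *Epha4*, *Ephb3* and *Efnb2* of the mutants and the highest of the other 5 genes. Mutant sample 1 was at the opposite end in 7 of the genes, all but *Epha2*, *Efna1* and *Efnb2*. Every gene has a highest and a lowest mutant sample, and these counts of genes were not taken over all genes tested. The 10 genes were measured in the same samples, so they are not independent. These values are a description, with 3 samples a group and no test.

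The partners and effectors of Eph signalling were taken as a list of 42 genes, among them Src-family kinases, adaptors and proteases. All 42 were listed, 38 were tested, 1 rose and 1 fell, with a median log2 fold change of -0.01. *Adam10*, which encodes a protease that cleaves A-class ephrins bound to their receptors, had an FPKM of 23.1, 22.7 and 20.8 in control samples and 30.2, 27.9 and 26.4 in mutant samples. The groups did not overlap, and *Adam10* rose by 0.34 on the log2 scale (SE 0.081, edgeR adjusted p = 0.0218). *Chn1*, which encodes a Rac-inactivating protein that acts downstream of EphA4, had an FPKM of 1.24, 0.79 and 1.32 in control samples and 0.25, 0.48 and 0.57 in mutant samples. *Chn1* fell by 1.38 on the log2 scale (SE 0.31, adjusted p = 0.0178). The share called, 2 of 38, was below the 13.2% of all genes tested, and it was 0 without control sample 1 or 3 and 1 without control sample 2 or mutant sample 2.

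Semaphorins, plexins and neuropilins, another family of contact and guidance cues, were counted for comparison. Of 31 listed genes 23 were tested, 6 rose and 3 fell, with a median log2 fold change of 0.02. The 9 calls were 39.1% of those tested, against 13.2% of all genes, and became 5 without control sample 2. *Sema3c*, a secreted semaphorin, rose by 4.59 on the log2 scale (SE 0.31, edgeR adjusted p = 3.01e-05), from an FPKM of 0.14, 0.06 and 0.09 to 3.16, 2.25 and 1.83. *Sema6d*, *Sema3a* and the semaphorin receptors *Nrp1* and *Nrp2* rose by 0.98 to 1.38. *Sema7a* rose from 1 to 3 counts a control sample to 14 to 55 counts a mutant sample. *Sema3c* had 6 to 14 counts a control sample and 181 to 308 a mutant sample. *Sema3c* and *Sema7a* passed the filter on low counts only through the mutant samples. With at least 10 counts in every sample, which leaves both out, the list had 7 calls, 4 higher and 3 lower. Over all genes this filter gave 1551 calls. Shares of the genes tested were not taken under it, so the 7 calls cannot be set against 13.2%. *Sema3b*, *Sema3d* and *Sema6c* fell by 0.83 to 0.92, of which *Sema6c* was named after its values were seen. The largest absolute log2 fold change was 0.60 in the Eph and ephrin family and 4.59, that of *Sema3c*, in this list. With *Sema3c* and *Sema7a* left out, the largest in this list was 1.38, that of *Nrp1*. The difference between the lists was not tested.

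**Figure D5:**
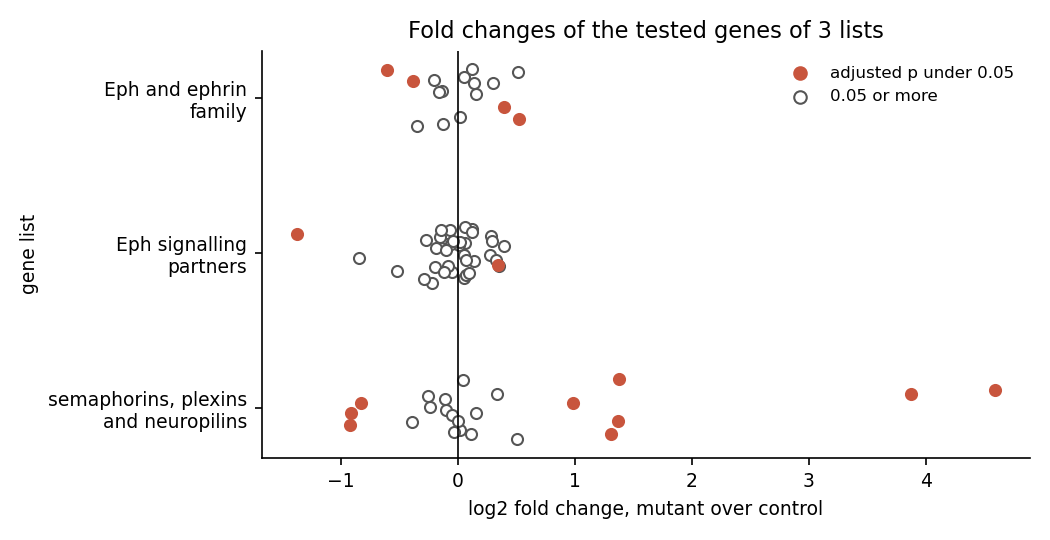
Log2 fold change of mutant over control samples, on the horizontal axis, for the tested genes of the Eph and ephrin family (16), the Eph signalling partners (38) and the semaphorins, plexins and neuropilins (23). Each point is a gene, spread vertically within its list for legibility, and filled points have an adjusted p under 0.05. The family stays between -0.60 and 0.52, while the semaphorin list reaches 4.59. That point is *Sema3c*, which passed the filter on low counts only through the mutant samples, as did *Sema7a*. Without these genes the list reaches 1.38 (*Nrp1*).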

How the data were processed

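RNA of the separated corneal epithelial layer was sequenced from 3 control and 3 mutant mice, which the study describes as independent biological samples. The authors removed rRNA, filtered single-end 50-base reads with SOAPnuke, aligned them with Bowtie2 2.2.5 and made the deposited expected counts and FPKM values with RSEM 1.2.12. The labels name a TruSeq kit and the paper's methods a rRNA-depletion kit and a BGISEQ-500 instrument. The submitters' processing notes name mm9, while the coordinates in the table are those of GRCm38. Expected counts divide reads that fit several genes, and 31.5% to 32.2% of them were not whole. The deposited fold changes, p-values and q-values of the authors' own comparison were not used.

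Expected counts were rounded and tested in R 4.3.3 with the quasi-likelihood test of edgeR 4.0.16, using genotype as the factor, TMM factors and the filterByExpr filter (minimum count 10, minimum total 15). A standard error is the absolute log2 fold change divided by the root of its F value, and intervals are 95%. FPKM of single genes was also compared by an exact permutation test, two-sided. Alternatives were DESeq2 1.42.0, limma 3.58.1 on log2(FPKM + 1) and log2(FPKM + 0.1), upper-quartile and RLE factors, no filter or a minimum of 10 counts per sample, a replicate block, fits without each of the samples, and lower thresholds. The scripts were tested on simulated data.

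The 10 genes and all lists were chosen with earlier results of these data known. Genes named are the 10, the other family genes, *Rela*, and up to 8 genes per list with an adjusted p under 0.05, beside cell type markers. *Sema6c*, *Muc1* and *Adam15* were named outside this rule, after their values were seen, and overlapping antisense genes are named with the genes they overlap. Of the marker lists, 1 of 7 corneal epithelial genes tested rose and 1 fell, 1 of 2 keratocyte genes tested rose, and 1 of 5 conjunctival genes tested fell. Summed FPKM was 81.4 to 89.3 in control and 73.6 to 121 in mutant samples for 8 leukocyte markers, most of it *Itgam* and *Cd68*, the only 2 of them tested. *Ptprc* was at most 0.15 FPKM, and *Lyz2* was at 0, 0 and 0.05 in control and 1.17, 0.64 and 0.19 in mutant samples. The sum was 70.8 to 78.1 in control and 76.4 to 77.8 in mutant samples for 6 nerve markers. At these depths 3 counts equal 0.152 to 0.154 CPM, for counting error only.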

Additional observations from a re-analysis of the deposited data

How the results depend on the processing

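The number of the 10 genes called was 2 under the other tests, scalings and filters and 1 to 3 with a sample left out. For the whole family it was 4, and 1 to 5 with a sample left out. The Eph signalling list gave 2 or 3 calls, and 0 to 3 with a sample left out. The semaphorin and plexin list gave 5 calls with limma on log2(FPKM + 1), 7 to 10 under the other tests, scalings and filters, and 5 to 10 with a sample left out. The log2 fold change of *Efna3* ranged from -0.82 to -0.40 with a sample left out, with adjusted p between 0.0073 and 0.132, and that of *Efna1* from 0.48 to 0.57. *Ephb3* ranged from -0.066 to 0.097 and changed sign without control sample 1 (-0.029) or mutant sample 1, and *Ephb4* ranged from -0.076 to 0.173 and changed sign without control sample 3 (-0.045) or mutant sample 3, with no call in either direction. The count of genes by the study's thresholds over the whole table was 173. DESeq2 gave 342, limma on log2(FPKM + 1) gave 114, and fits with a sample left out gave 36 to 193, while 857 to 1869 genes passed an adjusted p of 0.05 with a sample left out. A fit without a sample has 1 sample fewer, and other causes of these changes were not tested.

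Same-numbered control and mutant samples had correlations of 0.019, 0.048 and -0.046 in their deviations from the group means. Differently numbered samples had correlations of -0.077 to 0.064. These values show no pairing by replicate number, but they cannot exclude it. With the replicate block 2 of the 10 genes were called, as without it, with *Efna1* at 0.52 and *Efna3* at -0.64. Over all genes the median log2 fold change stayed between -0.014 and 0.0026 in every setting. The widest 95% intervals of the family were those of the low genes *Efna2* (-1.06 to 0.65) and *Efnb3* (-0.96 to 0.71), which had 8 to 33 counts a sample.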
